A study of Mus musculus with 10 samples.

Results

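The 38 genes described here cover glycolysis and the response to low oxygen, chosen by name from the 31053 genes counted in E0771 tumors: 19 enzymes and transporters of glucose and lactate, 5 genes of the HIF pathway and 14 hypoxia targets. All 38 had at least 1 UMI, that is, 1 counted mRNA molecule, in the cells kept. E0771 is a mouse mammary carcinoma line of C57BL/6 origin. The tumors had grown for 21 days in the mammary fat pad of female mice injected at 16 weeks of age. The EC-AGO1-KO mice (KO) carried floxed alleles of AGO1 in both copies and a Cre recombinase driven by VE-Cadherin, a promoter of endothelial cells, and the WT mice were their littermates. The injected tumor cells carried no deletion in either group. There were 5 WT libraries from 5 tumors and 5 KO libraries from 7 tumors, since the libraries KO 2+3 and KO 5+6 each pooled 2 tumors. One library of each group was made in a first batch and 4 of each in a second.

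Glycolysis splits glucose to pyruvate in the cytosol, and many tumors pass most of that pyruvate on to lactate even in oxygen. When oxygen falls, prolyl hydroxylases stop marking the HIF alpha proteins for destruction, and the HIF dimer then binds short motifs with the core CGTG and raises transcription of glycolytic enzymes, lactate export and a set of other targets. Mouse mammary tumors commonly hold poorly perfused regions, so these genes are widely read as markers of hypoxia, although transcripts of the HIF subunits themselves say little of HIF protein.

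RefSeq promoters (GRCm38.p6) were matched for 34 of the 38 genes, with 46 start sites in all. The 250 bases before each start were searched for the letters ACGTG and GCGTG on both strands, so that the palindromic run CACGTG counts on each strand. Either motif was present in 35 of 46 member promoters (76.1%) against 38.6% of all 32851 promoters, and ACGTG alone in 43.5% against 16.6%. A match is a description of these letters and not a measured binding site. The promoters of Aldoa, Bnip3, Gapdh, Adm, Ldha and Pgk1 are shown because these genes had the highest cell to cell correlations with the summed hypoxia targets in the WT library of the first batch, as given with the cell values. They were chosen after those values were seen. Capitals mark the motifs on either strand, and each sequence is written in the direction of transcription.
Aldoa, chr7:126799179-126799428, minus strand: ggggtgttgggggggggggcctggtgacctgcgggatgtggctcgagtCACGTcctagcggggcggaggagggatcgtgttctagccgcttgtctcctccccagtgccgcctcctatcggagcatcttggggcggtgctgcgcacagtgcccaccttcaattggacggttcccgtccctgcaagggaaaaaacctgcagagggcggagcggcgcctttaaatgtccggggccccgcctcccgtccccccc
Bnip3, chr7:138909507-138909756, minus strand: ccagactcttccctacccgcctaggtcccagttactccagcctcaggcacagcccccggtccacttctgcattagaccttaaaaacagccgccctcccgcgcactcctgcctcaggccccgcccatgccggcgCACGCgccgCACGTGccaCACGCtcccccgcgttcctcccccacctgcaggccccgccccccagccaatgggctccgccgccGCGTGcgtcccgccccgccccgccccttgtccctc
Gapdh, chr6:125165774-125166023, minus strand: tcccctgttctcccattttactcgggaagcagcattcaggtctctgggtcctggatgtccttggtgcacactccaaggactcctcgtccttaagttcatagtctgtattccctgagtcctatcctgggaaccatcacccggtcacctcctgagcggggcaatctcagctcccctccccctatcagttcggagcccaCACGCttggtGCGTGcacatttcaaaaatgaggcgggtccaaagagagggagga
Adm, chr7:110627407-110627656, plus strand: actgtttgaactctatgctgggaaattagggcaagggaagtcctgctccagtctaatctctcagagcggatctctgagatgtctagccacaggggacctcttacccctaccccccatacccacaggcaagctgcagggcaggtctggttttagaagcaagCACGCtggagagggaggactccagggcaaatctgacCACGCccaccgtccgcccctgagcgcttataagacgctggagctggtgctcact
Ldha, chr7:46845554-46845803, plus strand: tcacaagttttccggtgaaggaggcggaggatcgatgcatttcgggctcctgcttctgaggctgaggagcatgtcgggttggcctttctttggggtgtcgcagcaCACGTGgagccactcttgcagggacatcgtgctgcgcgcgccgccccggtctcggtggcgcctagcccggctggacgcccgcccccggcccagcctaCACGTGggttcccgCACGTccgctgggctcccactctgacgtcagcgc
Pgk1, chrX:106186850-106187099, plus strand: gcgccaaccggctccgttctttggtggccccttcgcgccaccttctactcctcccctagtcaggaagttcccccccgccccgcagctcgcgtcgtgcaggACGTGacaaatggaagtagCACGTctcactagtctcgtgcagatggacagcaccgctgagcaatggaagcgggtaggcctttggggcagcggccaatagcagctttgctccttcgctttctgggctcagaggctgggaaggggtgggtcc
The windows shown of Bnip3 and of Ldha each held 5 matches, those of Gapdh, Adm and Pgk1 held 2 each and that of Aldoa held 1. ACGTG was absent from the windows of Gapdh and Adm, which held GCGTG alone. Ldha and Aldoa have further start sites: the other Ldha window held 1 match and no ACGTG, and the other Aldoa windows held 1 and 0. The other Aldoa window with 1 match overlaps the window shown and holds the same site. Overlapping windows of a gene, as also for Eno1, can thus share a site, and the shares above are per promoter and not per gene.

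Total UMIs per library were 8323896 to 10591577, and 65298 cells were kept. The first batch had 968 to 1194 cells per library at a median of 3862 to 4049 UMIs per cell, and the second had 6212 to 10190 cells at 595 to 1142. Cells were clustered without the 38 genes, and clusters were named from marker lists: 59090 tumor-like, 2407 myeloid-like, 1388 T-like and 388 fibroblast-like cells, with 279 epithelial-like, 160 pericyte-like, 100 dendritic-like and 1486 unnamed. The 8 tumor markers summed to 10616 and 17759 CPM (counts scaled to a common total) in tumor-like cells of the first and second batch, against 1710 and 2808 in myeloid-like cells. The myeloid markers summed to 26359 and 2770 CPM in myeloid-like cells against 81.2 and 36.3 in tumor-like cells. The lone cluster led by endothelial markers (6 of them raised, 273 cells, all of the first batch) had hemoglobin genes among its leading genes. It stayed unnamed under the naming rule, so the genes were not read in the cells that carry the deletion. Ago1 had 27 to 52 UMIs per whole library (log2 KO to WT 0.07 ± 0.19 SE, edgeR adjusted p = 0.951), which does not check the labels because the deletion is endothelial. Of 45 pairs of libraries, 44 shared barcodes, by 0 to 28 cells and at most 0.503%.

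Levels are given as CPM of the UMIs of a class in a library. The method tags the 3' end of each transcript, so levels were not divided by length. The difference between the batches did follow the span of the gene, as given with the batch values, so the order of different genes by level holds for the batch named and is a description. In tumor-like cells of the first batch the 38 genes made up 1.53% and 1.56% of all UMIs, and in the second batch 0.331% to 0.412%. The batches also differed in RNA of other kinds: ribosomal protein transcripts took 18.0% to 19.5% against 2.19% to 3.47%, and Actb took 1.80% to 1.96% against 8.65% to 17.0%. Each batch holds both genotypes, so genotype and class were compared within batches or with batch or library as a term in the model.

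Glucose enters through the transporter Slc2a1 (GLUT1) and is trapped by the hexokinases. Slc2a1 stood at 88.3 and 92.9 CPM in tumor-like cells of the first batch and at 39.0, 49.8 and 57.1 (lowest, median, highest) over the 8 libraries of the second. Hk2, the inducible hexokinase common in tumors, stood at 174 and 173 in the first batch and at 199, 324 and 394 in the second. Hk1, the housekeeping hexokinase, was lower than Hk2 in each of the 10 libraries, between 66.6 and 98.4.

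In the middle steps the level was carried by Aldoa, the main aldolase, at 856 and 846 CPM in the first batch and 74.0 to 115 in the second. Aldoc, the aldolase best known from brain, stayed at 0.301 to 2.40. The phosphofructokinase subunits Pfkl and Pfkp lay within 18.5 to 62.0. Pfkfb3, which makes the allosteric activator of phosphofructokinase, stood at 16.1 to 44.0.

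The lower steps held Gapdh, the most abundant member in the first batch. It stood at 6819 and 7050 CPM in the first batch and at 365, 496 and 584 (lowest, median, highest) in the second, where Hif1a lay above it in most libraries. Eno1, the ubiquitous enolase, stood at 648 and 778 and then at 78.2 to 150, whereas the neuronal enolase Eno2 did not exceed 2.30. Pkm, pyruvate kinase, stood at 509 and 563 and then at 142 to 203.

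Ldha, which turns pyruvate to lactate, stood at 930 and 995 CPM in the first batch and at 288 to 415 in the second. Slc16a3 (MCT4), the lactate exporter of glycolytic cells, stood at 184 and 176 and then at 29.3 to 45.6. Pdk1, the kinase that closes pyruvate dehydrogenase, was 45.9 and 53.8 in the first batch and 72.5 to 113 in the second, so it was higher in every library of the second batch while Ldha and Slc16a3 were lower in every one.

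Among HIF genes, Hif1a and its partner Arnt were abundant and Epas1 (HIF-2 alpha) was near absent from tumor-like cells. Hif1a stood at 241 and 223 CPM in the first batch and at 355, 530 and 616 (lowest, median, highest) in the second. Epas1 stood at 0.171 to 2.17 over the 10 libraries. Of the oxygen-sensing prolyl hydroxylases, Egln1 (PHD2) stood at 59.0 to 109 and Egln3 (PHD3), itself a HIF target, at 53.0 to 139.

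Among the targets, Mif, a secreted cytokine-like factor, was by far the most abundant in the first batch, at 1844 and 1609 CPM, and stood at 103 to 187 in the second, where Kdm3a and P4ha1 came close to it. The mitophagy receptors Bnip3 and Bnip3l stood at 79.4 to 136 in the first batch and 13.04 to 54.7 in the second. The carbonic anhydrases Car9 and Car12, of which Car9 is a common stain for hypoxia, lay at 1.51 to 3.52 and 0.412 to 1.96 over all libraries. Ankrd37, a small ankyrin-repeat protein, lay at 1.38 to 10.7.

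**Figure D1:**
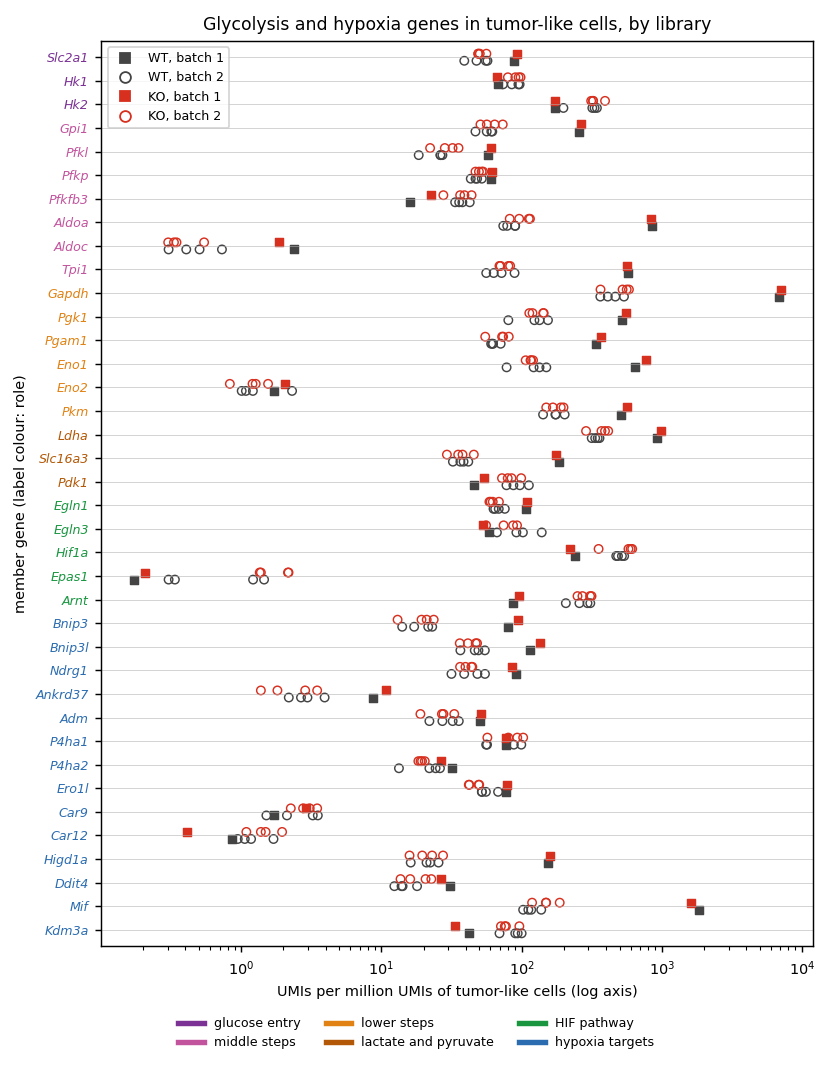
Levels of the 38 genes in tumor-like cells, in CPM on a log axis, with 1 point per library (WT and KO, first and second batch) and genes ordered by role. Gapdh is highest in the first batch, Hif1a lies above it in most libraries of the second, most enzymes sit lower in the second batch, and Hif1a, Arnt, Hk2 and Pdk1 sit higher there.

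The fall from the first batch to the second was not shared by all members. Of the 34 genes tested in tumor-like cells, 24 (70.6%) were lower in the second batch and 10 higher, with a median log2 difference of -0.95, whereas the median over all 11692 genes tested was -0.00. The 10 higher genes were Hif1a, Arnt, Hk1, Hk2, Pdk1, Egln3, Kdm3a, Pfkfb3, Car9 and P4ha1. Members that were lower had a median genomic span of 15.4 kb, from start to end of the gene, and those that were higher one of 47.8 kb. Over the 34 members, which share the same libraries, Spearman's rho of the batch difference with the span was 0.757, and over all 11680 genes with a span it was 0.570. The batches cannot be told apart from what went with them (sequencer, cells loaded, depth), and what set this order was not tested.

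**Figure D2:**
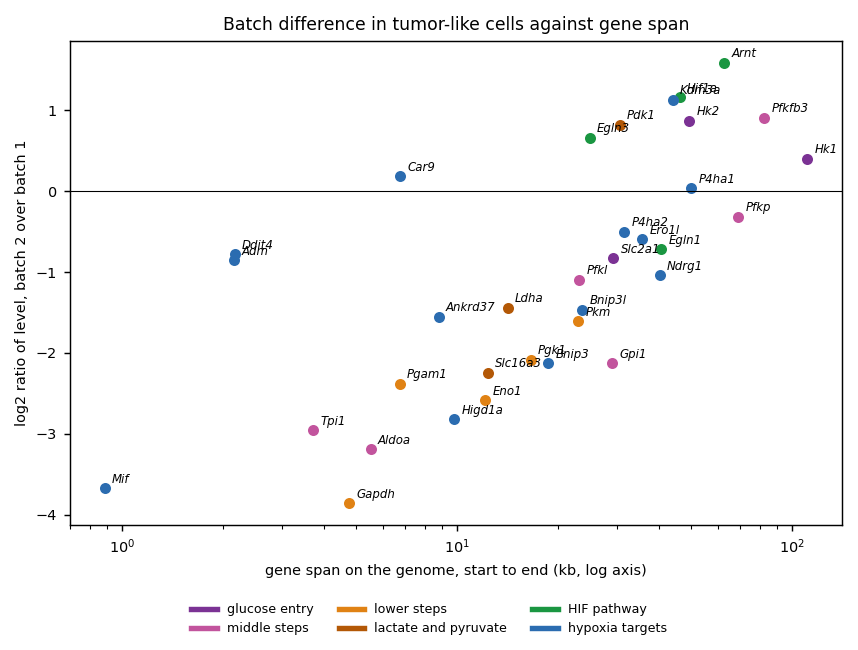
Log2 difference between the second and the first batch in tumor-like cells against the genomic span in kb on a log axis, with 1 point per tested member. The 24 members below 0 have a median span of 15.4 kb and the 10 above it one of 47.8 kb.

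The first comparison asked whether the tumor cells carried more of these transcripts than the immune and stromal cells beside them. Against myeloid-like cells of the same libraries, 23 of the 32 members that passed the filter on low counts were higher in tumor-like cells, 2 were lower and 7 were not called (edgeR quasi-likelihood test with library as block, adjusted p under 0.05). Over all 9813 genes tested, 62.6% were called, 41.8% higher and 20.9% lower, and the median log2 difference was 1.23 for members and 0.45 for all genes. By role, 12 of 17 enzymes and transporters were higher and 1 lower, 7 of 11 targets were higher and 1 lower, and all 4 HIF-pathway genes were higher. Free RNA, estimated from barcodes of at most 50 UMIs, accounted for 4.003% to 9.78% of the UMIs of tumor-like cells and 11.5% to 23.8% of those of myeloid-like cells. With its share subtracted the counts were again 23 and 2. The share over all genes after subtraction is not given here, so these counts do not set the members apart.

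Adm, which encodes the vasodilator adrenomedullin, and Egln3 had the largest differences. Adm stood at 50.8 and 51.7 CPM in tumor-like against 1.92 and 2.16 in myeloid-like cells of the first batch, and at 19.0, 27.5 and 35.7 (lowest, median, highest) against 0, 0 and 18.9 in the second. The ranges were far apart in the first batch and nearly met in the second, where most myeloid-like libraries had no Adm UMI. The fitted log2 difference was 3.71 ± 0.45, on 7 myeloid-like UMIs in all. Adm passed the low-count filter through its tumor-like counts, so its size is uncertain and its call adds no further support. Egln3 stood at 58.5 and 53.0 against 0.962 and 7.57 in the first batch and at 55.8, 89.4 and 139 against 0, 8.68 and 18.9 in the second. The ranges of Egln3 did not overlap in either batch, and the fitted log2 difference was 3.40 ± 0.34, on 14 myeloid-like UMIs in all. Egln3 had no UMI in some myeloid-like libraries and, like Adm, passed the low-count filter through its tumor-like counts. Its size is thus uncertain too, and its call adds no further support.

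A collagen-modifying enzyme and the lactate exporter followed. P4ha2, a collagen prolyl hydroxylase subunit, was higher (fitted log2 2.85 ± 0.46) on 8 myeloid-like UMIs in all (0.962 and 5.41 CPM in the first batch). Like Adm, it passed the low-count filter through its tumor-like counts. Slc16a3 was higher (fitted log2 2.10 ± 0.31), at 176 and 184 CPM against 30.8 and 45.4 in the first batch and at 29.3, 37.3 and 45.6 against 0, 0 and 25.1 in the second. The ranges of Slc16a3 did not overlap in either batch, and in the second most myeloid-like libraries had no UMI of it. It too passed the low-count filter through its tumor-like counts, so its call adds no further support.

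Pfkfb3 ran the other way. It stood at 16.1 and 22.5 CPM in tumor-like against 66.0 and 76.0 in myeloid-like cells of the first batch, and at 27.7, 37.1 and 44.0 against 158, 318 and 359 in the second. Every myeloid-like value lay above every tumor-like value, and tumor-like cells were 6.51-fold lower (log2 -2.70 ± 0.19, edgeR adjusted p = 1e-18). In T-like cells of the second batch it stood at 58.7, 186 and 259, also above every tumor-like value, and the difference from T-like cells was -1.65 ± 0.25 (edgeR adjusted p = 1.49e-10). P4ha1, which like P4ha2 encodes a catalytic subunit of collagen prolyl hydroxylase, stood at 55.9, 84.2 and 103 in tumor-like against 79.0, 174 and 239 in myeloid-like cells of the second batch, with overlap. It was lower in tumor-like cells by -0.85 ± 0.19 (edgeR adjusted p = 0.000116). The fitted difference of its paralog P4ha2 had the other sign, but on 8 myeloid-like UMIs, so no contrast between the paralogs was drawn.

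Other isozyme pairs differed in size of effect. Hk2 was 2.99-fold higher in tumor-like than in myeloid-like cells (log2 1.58 ± 0.21) and Hk1 1.99-fold (0.99 ± 0.23). Pfkl was higher (1.31 ± 0.32, edgeR adjusted p = 0.000363), whereas Pfkp gave -0.06 ± 0.26 (adjusted p = 0.849, edgeR). Bnip3l was higher (0.91 ± 0.27, edgeR adjusted p = 0.00305), and Bnip3 gave 0.53 ± 0.31 (edgeR adjusted p = 0.133). Egln1 was higher by 1.54 ± 0.26, less than Egln3.

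Of the other members, Gapdh (1.54 ± 0.21), Eno1 (1.58 ± 0.26), Ldha (1.28 ± 0.19) and Mif (1.87 ± 0.25) were higher in tumor-like cells, with edgeR adjusted p between 4.47e-09 and 7.35e-07. Hif1a (0.57 ± 0.17) and Arnt (0.62 ± 0.18) were higher by less. Pfkl, Bnip3l, Egln1, Eno1 and Mif each lacked UMIs in some myeloid-like library and so passed the low-count filter through their tumor-like counts. Aldoa, Gpi1, Pkm, Ero1l, Higd1a, Bnip3 and Pfkp were the 7 not called, at 0.46, 0.50, 0.33, 0.40, 0.45, 0.53 and -0.06 on the log2 scale. Within the first batch alone 22 members were higher and 5 lower, and within the second 28 were higher and 2 lower. The shares over all genes within each batch are not given here, so these counts do not set the members apart. For 8 of 36 members tested with a term for batch, the tumor-like to myeloid-like difference itself changed between batches (11.2% of all genes were called), and for 1 of 35 the difference from T-like cells did (3.12%). Gapdh was the clearest, at 0.37 within the first batch and 1.94 within the second, and Aldoa went from -0.37 to 0.91. These fits used TMM scaling. In plain CPM of the first batch (WT, KO), Aldoa stood at 856 and 846 in tumor-like against 871 and 671 in myeloid-like cells. Gapdh stood there at 6819 and 7050 against 4068 and 3463. Without that scaling Aldoa was thus lower in tumor-like cells of the first batch in WT only.

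Against T-like cells, 23 of 32 members were higher in tumor-like cells, 1 was lower and 8 were not called (56.3% of 9322 genes were called, 42% higher and 14.3% lower). The median difference was 1.26 for members and 0.63 for all genes. Without TMM scaling the median of all genes moved to 0.27, members to 22 higher and 3 lower, and the higher share of all calls from 74.6% to 59.2%. Enzymes carried most of the difference, with 14 of 17 higher and only Pfkfb3 lower, while 6 of 11 targets and 3 of 4 HIF-pathway genes were higher. Free RNA was 13.7% to 42.6% of T-like UMIs. In simulated counts this contrast also made more false calls than its threshold allows, so calls near the threshold are less certain.

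Hk2 stood at 199, 324 and 394 CPM in tumor-like and at 0, 45.5 and 134 in T-like cells of the second batch, without overlap (fitted log2 2.96 ± 0.27). It rested on 31 T-like UMIs in all, with none in some libraries, and passed the low-count filter through its tumor-like counts. Its size is thus uncertain, and its call adds no further support. Hk1 stood at 73.7, 92.6 and 98.4 against 26.5, 87.6 and 147, with overlap, and was not called (0.43 ± 0.26, edgeR adjusted p = 0.147). In the second batch the median of Hk2 was thus higher in tumor-like cells, whereas Hk1 had similar medians in both classes. Mif (2.20 ± 0.25) and Gapdh (2.18 ± 0.20) were 4.61-fold and 4.53-fold higher. Mif had no UMI in some T-like libraries and passed the filter in the same way as Hk2.

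Several targets had few or no UMIs in T-like cells and passed the low-count filter through their tumor-like counts. Adm had none, so tumor-like cells were at least 3.54-fold higher in the first batch and at least 4.77-fold in the second, against a floor of 3 counts over the T-like cells of the batch. Bnip3 had 1 T-like UMI in each batch, a ratio of 17.9 (95% counting interval 3.20 to 706) in the first and 9.73 (1.74 to 385) in the second. P4ha2 had 1 in the second batch, a ratio of 10.2 (1.82 to 402), and none in the first, a ratio of at least 2.04. Ndrg1, a stress-induced differentiation gene, was higher on 4 T-like UMIs (fitted log2 3.57 ± 0.52). These intervals and floors cover counting error only.

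Hif1a was not higher in tumor-like than in T-like cells. It stood at 223 and 241 CPM in tumor-like against 469 and 529 in T-like cells of the first batch, and at 355, 530 and 616 against 603, 832 and 992 in the second. The ranges were apart in the first batch and overlapped slightly in the second, where the highest tumor-like library passed the lowest T-like one. The fitted difference was -0.37 ± 0.17 (edgeR adjusted p = 0.0503), just short of the threshold, and DESeq2 (-0.44) and edgeR without TMM (-0.82) called it lower. Ddit4 (REDD1, an inhibitor of mTORC1) gave -0.52 ± 0.35 and P4ha1 -0.16 ± 0.24, neither called.

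Against fibroblast-like cells the test was not reliable: in simulated counts with these library sizes, more of the genes it called were unchanged than changed. The first batch contributed 1 library with 12 such cells. The calls are therefore given as counts only, and the differences as values. Of 32 members 12 were called higher and 3 lower (39.7% of 9260 genes were called, 30.5% higher and 9.14% lower), with a median of 0.60 for members and 0.77 for all genes. The calls were 9 higher and 0 lower of 17 enzymes and transporters, and 1 higher and 3 lower of 11 targets. Without TMM 4 were higher and 4 lower, the median of all genes moved to 0.34 and the higher share of all calls from 77.0% to 56.4%. Within the second batch alone 18 were higher and 1 lower. With free RNA subtracted, which was 3.62% to 58.6% of fibroblast-like UMIs, 17 were higher and none lower. The shares over all genes within the second batch and after subtraction are not given here, so neither count sets the members apart.

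Egln3 (log2 3.18 ± 0.62), Pdk1 (2.39 ± 0.54), Gapdh (1.78 ± 0.24) and Mif (1.69 ± 0.36) were the largest differences toward tumor-like cells. Each was positive within the second batch, but on few UMIs. Per library of that batch, fibroblast-like cells held 0 to 1 UMIs of Egln3 and of Mif, 0 to 2 of Pdk1 and 0 to 8 of Gapdh. P4ha1 lay toward fibroblast-like cells, which make much of the collagen that this enzyme modifies. It stood at 480 CPM in the fibroblast-like cells of WT batch 1 against 77.3 in its tumor-like cells, and at 0, 192 and 929 against 55.9, 84.2 and 103 in the second batch (log2 -1.51 ± 0.28 in all, -1.32 within the second batch). With free RNA subtracted it was -0.75 and not called. P4ha2 (-1.73 ± 0.41) and Ddit4 (-1.09 ± 0.43) were called lower over all libraries but gave -0.023 and 0.044 within the second batch. Both calls rested on the 12 cells of WT batch 1, where P4ha2 stood at 622 CPM.

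Epas1 was read in another class. In pericyte-like cells it stood at 131, 482 and 922 CPM (lowest, median, highest) over 7 libraries of the second batch, on 43 UMIs of the class there, against 0.303, 1.37 and 2.17 in tumor-like cells of the second batch. The ranges were far apart. Fibroblast-like cells (0, 72.2 and 305) and epithelial-like cells (0, 106 and 267) lay between. Unnamed cells, among them the cluster led by endothelial markers, were not read, so the class with the most Epas1 is not settled. In KO batch 1 the whole library held 12 Epas1 UMIs, and its tumor-like, T-like and myeloid-like cells held 1, 0 and 0. Tumor-like cells were not tested against pericyte-like or epithelial-like cells for any gene, and Epas1 did not pass the filter against fibroblast-like cells.

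**Figure D3:**
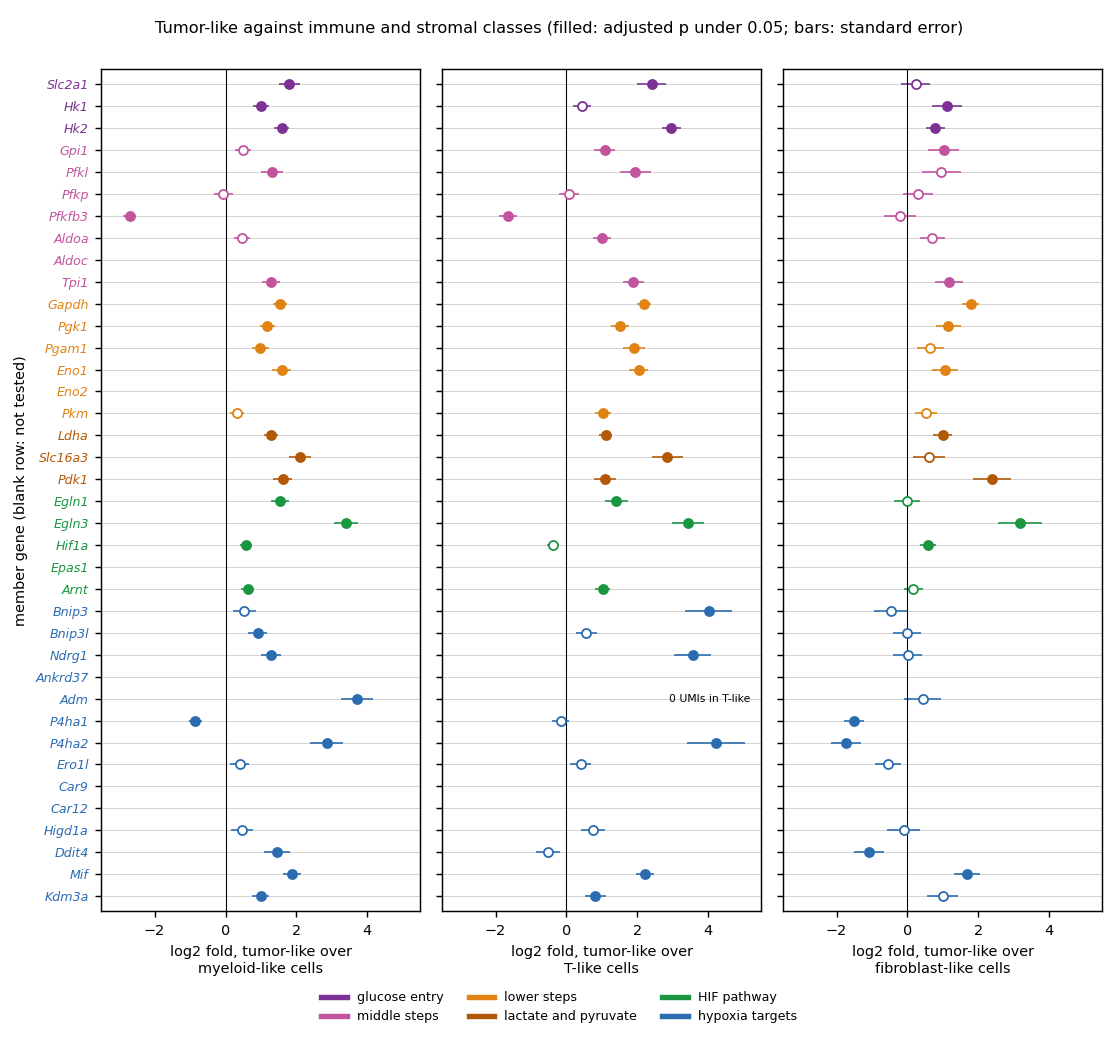
Log2 difference of tumor-like from myeloid-like, T-like and fibroblast-like cells for each tested member, with standard errors from the edgeR fit; filled points passed an adjusted p of 0.05, which is not reliable against fibroblast-like cells. Most enzymes lie to the right of 0 against myeloid-like and T-like cells, Pfkfb3 lies at -2.70 and -1.65, and P4ha1 lies at -0.85 against myeloid-like cells.

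Other genes of these pathways were taken from 2 further lists. Both were called at shares near those over all genes (41.8% higher and 20.9% lower), so neither list stood apart. Of 20 other glycolysis genes, 11 were tested against myeloid-like cells, and 5 were higher in tumor-like cells, among them the lactate carrier Slc16a1 (2.15) and the muscle enolase Eno3 (2.53). The 2 lower ones were Pfkfb4 (-1.43), a paralog of Pfkfb3, and the mitochondrial pyruvate carrier subunit Mpc2 (-1.16). Of 30 other hypoxia genes 21 were tested, with 8 higher, led by the collagen lysyl hydroxylase Plod2 (4.50) and the adenylate kinase Ak4 (4.17). The 4 lower were Rora (-2.79), Nfil3 (-2.34), Gbe1 and Narf.

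The second comparison asked whether loss of AGO1 in endothelial cells went with a different level of these genes in the tumor. In tumor-like cells none of the 34 members tested was called between KO and WT (edgeR with batch as covariate), and none of all 11692 genes was (0% called). At an unadjusted p under 0.05 there were 2 members and 626 genes, and DESeq2 called 3 genes and 0 members. Aldoc, Eno2, Car12 and Epas1 did not pass the filter. Fitted differences ran from -0.39 to 0.18, with a median of -0.02 for members and -0.01 for all genes, 0.02 for enzymes and -0.10 for targets.

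Ero1l, which oxidises disulfides in the endoplasmic reticulum, was the member with the smallest p. In the second batch it stood at 68.0, 52.1, 52.2 and 55.7 CPM in WT 1, 3, 4 and 5 and at 42.4, 42.0, 49.9 and 49.4 in KO 1, 2+3, 4 and 5+6, and in the first batch at 77.8 in WT and 78.1 in KO. All 4 KO libraries of the second batch lay below all 4 WT libraries, while the first batch showed no gap. The difference was -0.31 ± 0.11 (edgeR adjusted p = 0.870, 95% interval -0.55 to -0.08).

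Egln3 stood at 139, 91.8, 66.7 and 102 CPM in WT 1, 3, 4 and 5 and at 55.8, 74.4, 92.8 and 87.0 in KO 1, 2+3, 4 and 5+6, and at 58.5 and 53.0 in WT and KO of the first batch. The groups overlapped, with WT 4 below 3 of the KO libraries (-0.39 ± 0.16, edgeR adjusted p = 0.870, 95% interval -0.72 to -0.056). Kdm3a, a histone demethylase induced by HIF, stood at 93.9, 90.2, 100.1 and 69.6 in WT and at 96.4, 77.3, 75.9 and 71.3 in KO, and at 42.4 and 33.4 in the first batch. It overlapped as well, at -0.25 ± 0.14 (edgeR adjusted p = 0.870).

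The members with the lowest p in the other direction were Aldoa, Mif and Pfkl. Aldoa stood at 74.0, 90.0, 79.0 and 90.0 CPM in WT 1, 3, 4 and 5 and at 113, 96.2, 82.3 and 115 in KO 1, 2+3, 4 and 5+6, and at 856 and 846 in the first batch. All KO libraries except KO 4 lay above every WT library (0.15 ± 0.13, edgeR adjusted p = 0.896). Mif stood at 103, 138, 117 and 112 in WT and at 187, 150, 119 and 149 in KO, and went the other way in the first batch, at 1844 in WT and 1609 in KO (0.18 ± 0.15, edgeR adjusted p = 0.896). Pfkl stood at 27.2, 26.4, 18.5 and 26.4 in WT and at 32.2, 35.5, 22.3 and 28.3 in KO, and at 57.7 and 60.4 in the first batch, with overlap through KO 4 (0.16 ± 0.15, edgeR adjusted p = 0.9001).

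Summed over a list, the 19 enzymes and transporters stood at 2157 ± 238 CPM in WT and 2328 ± 233 in KO of the second batch (SD, n = 4 each), and at 12155 and 12704 in the first batch. The 14 targets stood at 540 ± 33.2 and 557 ± 33.0 in the second batch, and at 2608 and 2391 in the first. In the second batch both sums differed between genotypes by less than the SD of either group. Without Mif the target sum was 764 in WT and 781 in KO of the first batch, and 389 to 465 in WT and 399 to 412 in KO of the second. None of 13 other glycolysis genes and none of 22 other hypoxia genes tested was called.

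**Figure D4:**
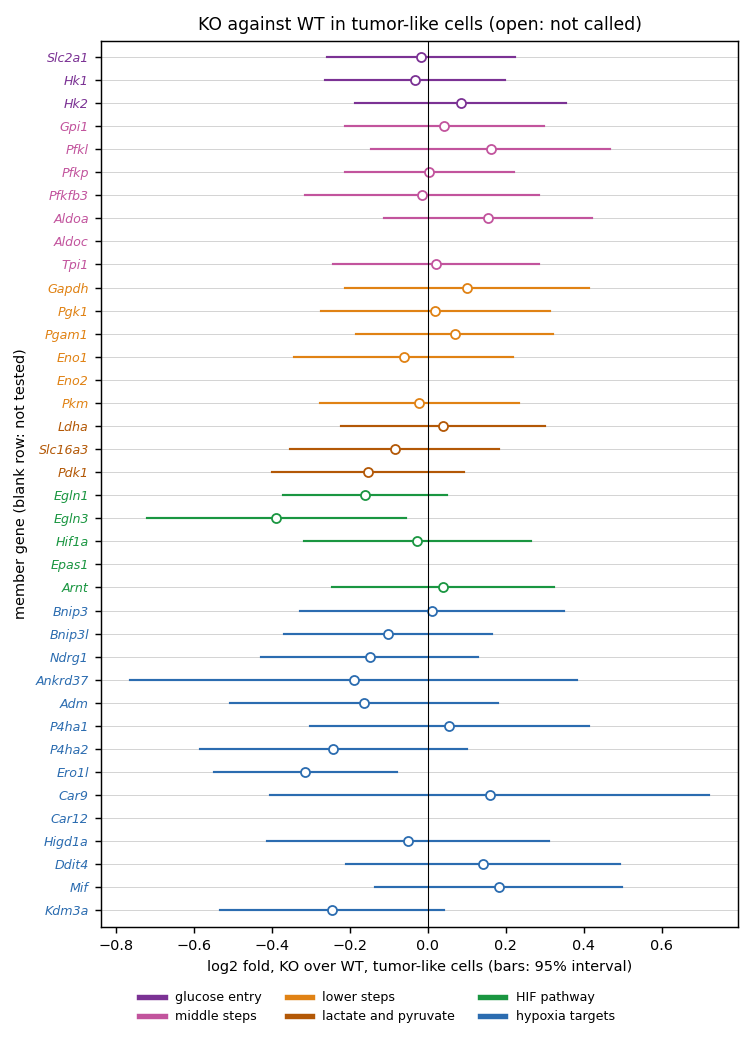
Log2 KO to WT difference in tumor-like cells for the 34 tested members, with 95% intervals from edgeR with batch as covariate. Ero1l and Egln3 have intervals that lie below 0, at -0.31 and -0.39, and no member was called after adjustment over 11692 genes.

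In myeloid-like cells 7 members could be tested, and none was called (0% of 1383 genes, 56 genes and 0 members at an unadjusted p under 0.05, 0 by DESeq2). Hif1a stood at 340, 427, 474 and 349 CPM in WT 1, 3, 4 and 5 and at 307, 524, 466 and 452 in KO 1, 2+3, 4 and 5+6, and at 105 and 108 in the first batch (0.18 ± 0.19, edgeR adjusted p = 0.999). Ldha stood at 161, 230, 237 and 113 in WT and at 90.2, 187, 88.1 and 100.4 in KO, and at 436 and 378 in the first batch (-0.29 ± 0.22, adjusted p = 0.999 by edgeR). Both genes overlapped between the groups.

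Pkm stood at 215, 98.5, 316 and 123 CPM in WT and at 54.1, 139, 88.1 and 138 in KO, and at 486 and 455 in the first batch, again with overlap (-0.26 ± 0.22). Arnt stood at 233, 164, 158 and 161 in WT and at 198, 221, 189 and 163 in KO, and at 50.8 and 54.8 in the first batch (0.11 ± 0.23). Gapdh (-0.19), Pfkfb3 (-0.11) and P4ha1 (-0.07) completed the 7. The genotype difference was also tested between the classes. None of 33 members and of 11559 genes (0% called) differed between tumor-like and myeloid-like cells, and Egln3 was the 1 member with an unadjusted p under 0.05 (tumor-like minus myeloid-like 1.86 ± 0.91), among 238 genes, with 7 myeloid-like UMIs in WT batch 1 and 0 to 2 in each other library.

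T-like cells allowed 2 members, Ldha (-0.16 ± 0.30) and Hif1a (0.17 ± 0.18), and none of 814 genes was called there (0%). Fibroblast-like cells allowed only Hif1a (0.46 ± 0.39), with 2 of 345 genes called (0.58%) and no member. In whole libraries 35 members were tested and none of 12459 genes was called (0%), with 1133 genes and 4 members at an unadjusted p under 0.05. These were Ero1l (-0.37 ± 0.11, edgeR adjusted p = 0.456), Egln3 (-0.46 ± 0.16), P4ha2 (-0.36 ± 0.17) and Egln1 (-0.21 ± 0.10). All 4 lay below 0, in libraries made up mostly of tumor-like cells.

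The last question was whether enzymes and targets rose and fell together from cell to cell. It was asked in tumor-like cells of the first batch, after thinning each cell to 4000 UMIs and with Mif left out of the targets. Spearman's rho of the summed enzymes with the summed targets was 0.335 over 499 of 567 cells in WT and 0.395 over 345 of 371 cells in KO. Before thinning it was 0.459 and 0.505. Summed ribosomal protein genes gave 0.025 and 0.066. Single genes gave a 95th percentile of 0.053 and 0.065 over 7637 and 7741 genes, but most have few UMIs per cell, which lowers rho by sampling alone, so this percentile is no measure for a sum. Cells of a library share its preparation and its free RNA, so these values are a description of 2 libraries.

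Aldoa followed the targets most closely among the abundant enzymes, at 0.250 in WT and 0.331 in KO. Pgk1, which makes the first ATP of glycolysis, gave 0.207 and 0.318, Ldha 0.216 and 0.298, Gapdh 0.231 and 0.306, and Slc2a1 0.170 and 0.291. Bnip3 followed the sum of the other targets at 0.231 and 0.341 and Adm at 0.218 and 0.315. Of the 32 members with enough UMIs, 26 in WT and 27 in KO passed the 95th percentile of all genes, which were not matched to them in level, and 25 did so in both. By role these were 13 of 17 enzymes and transporters, 10 of 11 targets and 2 of 4 HIF-pathway genes (Egln1 and Egln3). Hif1a gave 0.058 and -0.013 and Arnt -0.006 and -0.027, so of the HIF subunits Hif1a alone passed the percentile, in WT and by little.

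Myeloid-like cells of the first batch, thinned to 1500 UMIs, gave 0.289 over 279 cells in WT and 0.193 over 300 in KO. In the second batch, at 1000 UMIs per cell, the tumor-like values were 0.062 to 0.112 with 0.381 to 0.483 target UMIs per cell, and at such counts no relation was read from them.

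**Figure D5:**
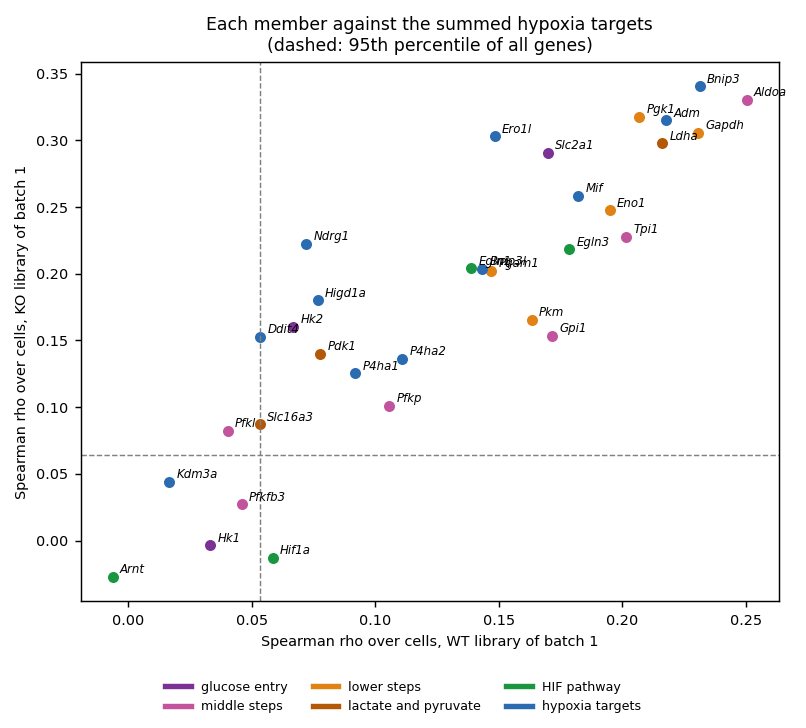
Spearman's rho of each member with the summed hypoxia targets over tumor-like cells of the first batch, thinned to 4000 UMIs per cell, in the WT library (horizontal axis) and the KO library (vertical axis), with 1 point per measured member and dashed lines at the 95th percentile of all genes (0.053 and 0.065). Aldoa, Bnip3, Adm, Gapdh, Pgk1 and Ldha lie at the upper right, and Arnt, Hk1, Kdm3a, Pfkfb3 and Hif1a at the lower left.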

How the data were processed

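Single-cell RNA was measured in 10 tumor libraries by a droplet method that tags the 3' end of each molecule with a UMI. The deposited values are unnormalized UMI counts for every barcode, empty droplets included, which the authors made with Cell Ranger 7.1.0 on mm10 per the labels. Groups, batches and pooling were read from the labels and the study's methods. The members and lists were chosen with earlier results of these data known.

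A barcode counted as a cell if it had between 200 and 7000 genes and no more than 10% of its UMIs from mitochondrial transcripts (Python 3.11.15, scanpy 1.11.5). Doublets were not removed. Cells were clustered on 2000 variable genes without the members, other pathway genes and Actb (30 components, 15 neighbours, Leiden resolution 1), and clusters were named from markers by thresholds set after the clusters were seen (at least 3 markers at 2-fold). Of 2 rows with the symbol Aldoa, the one with 16926 UMIs was used and the one with 16 was left out. Reads of near-identical copies may be split by the counting (Eno1b 396 UMIs, Gapdhs 140), so Eno1 and Gapdh are uncertain by that much.

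UMIs were summed per library and class where at least 10 cells were present, and tested with the quasi-likelihood test of edgeR 4.0.16 (TMM, filterByExpr, R 4.3.3) with batch (KO against WT) or library (between classes) as covariate and Benjamini-Hochberg adjustment over all genes tested. The study's methods test cells as replicates, whereas libraries were the samples here. The labels show separate tumors, and p-values measure the spread between these libraries. Errors are standard errors unless named otherwise. The scripts were tested on simulated data, where false calls passed the nominal share somewhat against myeloid-like and more against T-like cells, and outnumbered true ones against fibroblast-like cells. Alternatives were DESeq2 1.42.0, no TMM, no low-count filter, no batch term, a replicate block, 500 genes as cell limit, resolution 0.5, free RNA subtracted, each library left out, and batches alone. Named genes were all members by role, with library values for the 3 (tumor-like) or 2 (myeloid-like) of lowest p in each direction between KO and WT, the 4 largest differences in each direction between classes, and isozyme pairs. Total UMIs per library of 8323896 to 10591577 limit single genes in small classes to few UMIs.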

Additional observations from a re-analysis of the deposited data

Results flagged for a closer look

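Over 80 groups of 4 libraries of the second batch, each library was compared with the other 3, and in 5 groups one library stood apart, at a limit that chance passes in about 1 group of 20. In tumor-like cells Hk2 was high in KO 5+6 at 394 CPM, against 314 to 324 in the other KO libraries. Pfkl was low in WT 4 at 18.5, against 26.4 to 27.2 in the other WT libraries. Hif1a was low in KO 1 at 355, against 579 to 616. In myeloid-like cells the summed enzymes and transporters were high in WT 1 at 1700 CPM, against 1255 to 1281, and the summed hypoxia targets were high in KO 4 at 441, against 307 to 314.

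The difference of tumor-like from myeloid-like cells changed between the batches for 8 members (second minus first batch, edgeR, log2 ± SE; 11.2% of 14216 genes were called). It was greater in the second batch for Aldoa (1.12 ± 0.33, edgeR adjusted p = 0.0123), Bnip3 (2.66 ± 0.81, edgeR adjusted p = 0.0139), Eno1 (1.97 ± 0.43, edgeR adjusted p = 0.000155), Gapdh (1.41 ± 0.28, edgeR adjusted p = 2.5e-05), Hk2 (1.13 ± 0.32, edgeR adjusted p = 0.00728) and Mif (1.53 ± 0.43, edgeR adjusted p = 0.00662). It was smaller for Ero1l (-1.22 ± 0.39, edgeR adjusted p = 0.0214) and Pfkp (-1.04 ± 0.36, edgeR adjusted p = 0.0418). Against T-like cells Gapdh alone changed (1.10 ± 0.33, edgeR adjusted p = 0.0373; 3.12% of 13515 genes were called).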

How the results depend on the processing

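Between KO and WT no member was called in tumor-like, myeloid-like, T-like or fibroblast-like cells under the alternatives that could be fitted, and leaving out each library gave 0. In whole libraries without a low-count filter 1 member was called (Egln3, -0.50), among 241 of 27390 genes. The replicate block joined WT 1 with KO 1, WT 4 with KO 4 and WT batch 1 with KO batch 1. WT 3, WT 5, KO 2+3 and KO 5+6 each stood alone in a block and added nothing to the genotype difference. In that fit 0 members were called in tumor-like cells. The genes at an unadjusted p under 0.05 went from 626 to 264, with fewer libraries compared. Deviations in tumor-like cells correlated at -0.173 for WT 1 and KO 1, -0.304 for WT 4 and KO 4, 0.091 for WT 3 and KO 2+3 and 0.215 for WT 5 and KO 5+6, so the numbers were not taken to pair the samples. The calls against fibroblast-like cells, 15 in all, were 9 with DESeq2, 8 without TMM and 0 with a limit of 500 genes per cell. Leaving out each library gave 13 to 19 against fibroblast-like, 25 to 28 against myeloid-like and 24 to 26 against T-like cells. The shares over all genes under these alternatives are not given here, so the counts do not set the members apart. Aldoa against myeloid-like cells turned to -0.37 in the first batch alone, an alternative chosen after seeing the data, and to -0.37 with the limit of 500 genes. Both fits used TMM scaling. In plain CPM of the first batch Aldoa was lower in tumor-like cells in WT (856 against 871) but not in KO (846 against 671). Against fibroblast-like cells Bnip3 turned to 8.98, a fitted value that is no bound, and Ddit4 to 0.044 in the second batch alone, which equals leaving out WT batch 1; leaving out each library gave -0.56 to 8.98 and -1.27 to 0.044. The cause was not tested. Single members were stronger in 32 other cases and weaker in 42. The limit of 500 genes could not be fitted for KO against WT in myeloid-like, T-like and fibroblast-like cells. Resolution 0.5 does not alter whole libraries and was not run for them. Free RNA was not subtracted from whole libraries, so its effect there was not tested. Depth limits what the small classes show: most members have few UMIs per library there.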
